A study of Homo sapiens with 24 samples.

Results

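The pro-apoptotic members of the BCL2 family were followed in 2 multiple myeloma cell lines treated with CX-5461, panobinostat or both. The 10 members were the rows of both count tables whose NCBI Gene identifiers map to BBC3, PMAIP1, BCL2L11, BMF, BID, BAD, BIK, HRK, BAX and BAK1, out of 28395 identifiers. All 10 were found. BCL2 family proteins decide whether the outer mitochondrial membrane is breached. The effectors BAX and BAK1 form pores through which cytochrome c escapes and starts the caspase cascade, and guardians such as BCL2, BCL-XL (gene BCL2L1) and MCL1 hold them in check. The other 8 members are BH3-only proteins, which carry a short helix, the BH3 domain, that binds the guardians and in some cases the effectors directly. Myeloma cells, which are malignant plasma cells, are known to lean on MCL1 for survival.

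MM1.S is labelled p53 wild type and JJN3 p53 null, and the genotype label of both lines is otherwise wild type. Each line was given vehicle, CX-5461 at 500 nM (an inhibitor of ribosomal RNA synthesis by RNA polymerase I), panobinostat at 50 nM (an inhibitor of histone deacetylases), or both together at these doses for 24 h, with 3 libraries in each of the 8 groups. PolyA RNA was read by 3′ RNA sequencing, which counts a stretch near the end of each transcript, and the design text gives a synergistic response to the 2 drugs as the reason for the study. In JJN3 the treatment label of 2 of the 3 CX-5461 libraries ends in a different compound number from the title and the protocol, and the titles were followed. The labels do not say whether replicates were separate cultures, so p-values speak only for the scatter among these libraries, and that scatter may be technical. Each line stands for 1 model of its p53 status, so line and p53 status cannot be told apart.

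The coding sequence of the BH3 core is shown because it is what defines these genes as a family. Each stretch of 30 coding bases was read 5′ to 3′ on the sense strand from a GENCODE release 29 transcript. Capitals mark the codon of the leucine and the codons of the small residue and the aspartate that close the core.

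BBC3: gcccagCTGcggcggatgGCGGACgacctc
PMAIP1: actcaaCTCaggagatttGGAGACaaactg
BCL2L11: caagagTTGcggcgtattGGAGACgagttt
BMF: cgaaagCTTcagtgcattGCAGACcagttc
BID: aggcacCTCgcccaggtcGGGGACagcatg
BAD: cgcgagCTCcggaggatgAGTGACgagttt
BIK: ctgcggCTGgcctgcatcGGGGACgagatg
HRK: gcccggCTCaaggcgctaGGCGACgagctg
BAX: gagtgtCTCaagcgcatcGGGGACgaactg
BAK1: cggcagCTCgccatcatcGGGGACgacatc

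The search required the leucine, the aspartate and, before the aspartate, glycine, alanine or serine, so these residues were set in advance. The aspartate codon was GAC in all 10 stretches. The core lay at codon 29 of 54 in PMAIP1, the shortest of the 10 reading frames, and at codon 136 of 241 in BID, the longest. Of the 13 BCL2L11 transcripts with any match to the core, 11 held the stretch shown. The counts do not separate such isoforms.

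Promoter windows are shown for BBC3 and BCL2L11, whose levels peaked under different drugs in MM1.S in the data below. RefSeq windows on GRCh38.p14, from 250 bases before to 50 bases after the gene start, matched 9 of the 10 members, not BIK. The 250 bases before the start are printed for BBC3 (chr19:47232668-47232917, minus strand) and for BCL2L11 (chr2:111120664-111120913, plus strand). Capitals mark a match to the AP-1 letters TGANTCA in BBC3 and to the FOXO letters TGTTTAC in BCL2L11, which lie there on the opposite strand.

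BBC3: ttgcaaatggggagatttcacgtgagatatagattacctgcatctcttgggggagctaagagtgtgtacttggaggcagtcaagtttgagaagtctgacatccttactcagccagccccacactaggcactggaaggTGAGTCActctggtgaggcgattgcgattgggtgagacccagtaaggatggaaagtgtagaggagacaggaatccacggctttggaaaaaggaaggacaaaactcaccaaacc
BCL2L11: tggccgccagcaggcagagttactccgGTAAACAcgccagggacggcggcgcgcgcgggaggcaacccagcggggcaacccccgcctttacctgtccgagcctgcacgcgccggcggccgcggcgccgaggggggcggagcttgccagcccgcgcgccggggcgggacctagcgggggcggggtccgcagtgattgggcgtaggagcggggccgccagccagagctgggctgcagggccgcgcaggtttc

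The AP-1 letters, searched on both strands, were found at position -113 of BBC3 and in 7.71% of 35116 windows of the same length. The FOXO letters were at position -223 of BCL2L11 and in 3.42%. Each was in 1 of 15 windows of members. Other letters were searched too. A p53 site of 20 bases, with up to 3 mismatches allowed, was in 1 of the 15, PMAIP1 at -185, and in 1.12% of all windows. CACGTG (E-box) was in 4 of the 15, among them BBC3 at -232, and in 7.26% of all windows. GGGCGG (GC box) was in 12, among them BCL2L11, and in 45.0% of all windows. Some windows overlap, since BID has 5 and BAD has 2, so the same letters can count more than once. The E-box of BID is such a case. A match describes letters and is not evidence of binding, and GRCh38.p14 is not among the builds that the submitters' notes name.

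Total counts ranged from 4751893 to 7305069 per library. The 10 plasma cell markers were all present, and their summed level was 8880 to 9737 CPM in MM1.S with vehicle, 7117 to 7715 with CX-5461, 1100 to 1296 with panobinostat and 980 to 1111 with both. In JJN3 the sum was 4139 to 5208 CPM with vehicle and 2511 to 3185 with both drugs. Summed fibroblast markers (COL1A1, COL1A2 and DCN) were at most 0.348 CPM in MM1.S with vehicle, 9.18 to 17.5 with panobinostat and 9.95 to 21.7 with both drugs. In JJN3 they were at most 0.18 CPM with vehicle, at most 3.69 with panobinostat and 1.59 to 8.27 with both. Epithelial markers reached 21.5 CPM in JJN3, and T cell and myeloid markers summed to at most 2.99 CPM in every group. The part of these marker shifts in the results below was not tested. In bulk RNA, fewer cells of a state and less RNA per cell cannot be told apart.

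CX-5461 raised most of the family in MM1.S. BBC3, PMAIP1, BMF, BIK, HRK and BAX rose, BCL2L11, BID and BAK1 did not pass the test, and no member fell. A gene was called where edgeR's quasi-likelihood test gave an adjusted p (Benjamini-Hochberg over all genes tested) under 0.05. By that rule 6 of the 9 members tested were called, against 16.7% of 12030 genes called in either direction and 9.68% called higher. HRK passed edgeR's filter on low counts in MM1.S only through its CX-5461 group, so its call is not independent of that filter. BAD, at no more than 2 counts in any library, was not tested in any comparison.

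Panobinostat in MM1.S split the family. BBC3, PMAIP1, BCL2L11, BMF and BIK rose, BID and BAK1 fell, and HRK and BAX did not pass. These are 7 called of 9, where 69.8% of all genes were called, 36.9% higher and 32.9% lower, so the share called is near the background. With both drugs the same 5 genes rose and the same 2 fell, against a background of 70.2% called, 37% higher and 33.2% lower. Against CX-5461 alone, both drugs together left BBC3, PMAIP1, BID, BAX and BAK1 lower and BCL2L11 higher, 6 of 9, with 69.8% of genes called, 35.9% higher and 33.9% lower. Against panobinostat alone, only BBC3 was called, higher, where 4.08% of genes were called and 2.44% were higher.

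In JJN3, 0 of the 9 members tested were called with CX-5461 in edgeR, and 0% of 11411 genes. At an unadjusted p under 0.05 there were 633 genes, while DESeq2 called 19 genes and limma-voom 0, none of them a member. Panobinostat raised BCL2L11, BMF and HRK and lowered BID, 4 of 9, with 26% of genes called, 15% higher and 10.9% lower. Both drugs raised and lowered the same 4 genes, with 39.2% called, 21% higher and 18.2% lower. Against CX-5461 alone, both drugs raised BMF and HRK and lowered BID, with 34.4% called, 18.8% higher and 15.6% lower. HRK passed the filter on low counts in JJN3 only through the groups with panobinostat, so its calls are not independent of that filter. Against panobinostat alone, 0 members were called in edgeR, where 0.903% of genes were, 1611 genes had an unadjusted p under 0.05 and DESeq2 called 262 genes with no member. Replicate numbers paired the JJN3 libraries. With the number as a block, 6 members were called with panobinostat, where 4784 of 11411 genes were. With CX-5461 the block gave 0 members and 157 genes. For both drugs against panobinostat it gave 1399 genes.

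**Figure D1:**
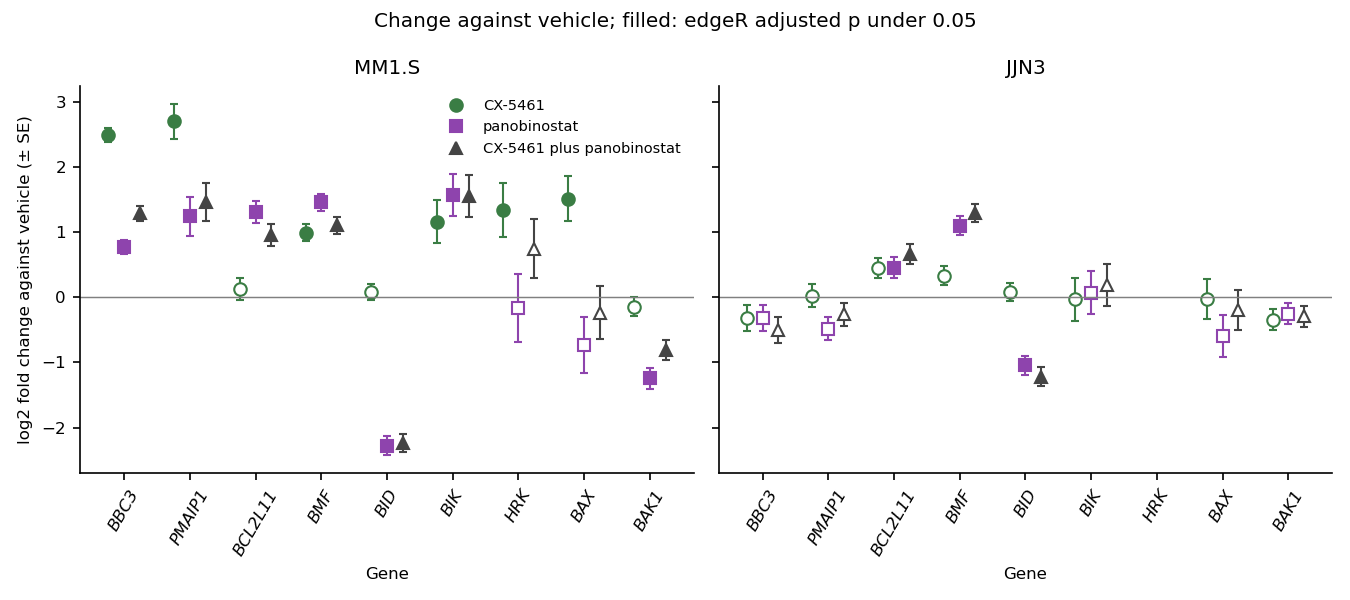
Log2 fold change against vehicle (vertical axis, ± SE) of each member tested, in MM1.S (left) and JJN3 (right), for CX-5461 (circles), panobinostat (squares) and both (triangles); filled symbols had an adjusted p under 0.05. HRK is left out in JJN3, where vehicle held 1 count. In MM1.S the CX-5461 circles of BBC3 and PMAIP1 stand at 2.49 and 2.71, while in JJN3 no circle is filled.

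BBC3 encodes PUMA, a BH3-only protein that binds all the main guardians. In MM1.S its level was 69.0, 94.0 and 78.0 CPM with vehicle and 419, 497 and 438 CPM with CX-5461. With panobinostat it was 132, 132 and 144 CPM, and with both drugs 199.7, 186 and 200.1 CPM. The 4 groups of MM1.S did not overlap, and the order from high to low was CX-5461, both drugs, panobinostat, vehicle. Against vehicle the log2 fold change was 2.49 ± 0.11 (SE) with CX-5461, a 5.64-fold rise (edgeR adjusted p = 1.54e-14). It was 0.77 ± 0.11 with panobinostat (edgeR adjusted p = 1.03e-06) and 1.29 ± 0.11 with both (edgeR adjusted p = 1.26e-10). Both drugs together were thus 1.44-fold above panobinostat (log2 0.52 ± 0.11, edgeR adjusted p = 0.00506) and below CX-5461 by a log2 difference of -1.20 ± 0.11 (edgeR adjusted p = 2.1e-10). The call against panobinostat was lost in a single fit of both lines (edgeR adjusted p = 0.112).

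In JJN3, BBC3 was already at 353, 433 and 258 CPM with vehicle. It was 279, 344 and 218 CPM with CX-5461, 271, 316 and 259 CPM with panobinostat and 245, 297 and 203 CPM with both drugs. The 4 groups overlapped, and within a group replicate 2 was the highest and replicate 3 the lowest each time. Each CX-5461 library lay below the vehicle library of the same number. The log2 fold change with CX-5461 was -0.32 (95% interval -0.77 to 0.14), in a fit that does not use this pairing. It was -0.32 ± 0.20 with panobinostat and -0.50 ± 0.20 with both, neither called (edgeR adjusted p = 0.251 and 0.0537). With the replicate block both became calls, at -0.29 ± 0.09 (edgeR adjusted p = 0.00726) and -0.49 ± 0.09 (edgeR adjusted p = 2.14e-05). The change with CX-5461 was not called with the block. Without the block, the value with both drugs also passed in DESeq2 (adjusted p = 0.0396), with RLE size factors (0.049), without the 10 most abundant genes (0.0495), in a single fit of both lines (0.016), without the filter on low counts (edgeR adjusted p = 0.00115), and without the JJN3 library Vehicle 3 (0.0105), CX 2 (0.033), CX 3 (0.0373), Pano 2 (0.0417) or CX+Pano 2 (0.0273).

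PMAIP1 encodes NOXA, a BH3-only protein that binds MCL1 above all. In MM1.S it was at 5.04, 8.96 and 2.48 CPM with vehicle, from 15 to 41 counts a library, and at 34.9, 37.9 and 30.9 CPM with CX-5461. With panobinostat it was 11.6, 12.5 and 13.2 CPM, and with both drugs 9.76, 15.2 and 18.5 CPM. All 3 treated groups lay above every vehicle library, CX-5461 lay above the rest, and the panobinostat and combined groups overlapped. The rise with CX-5461 was 6.53-fold (log2 2.71 ± 0.27, edgeR adjusted p = 6.34e-07). It was a log2 fold change of 1.24 ± 0.30 with panobinostat (edgeR adjusted p = 0.00112) and 1.46 ± 0.29 with both (edgeR adjusted p = 0.000189). Against CX-5461 alone, both drugs left PMAIP1 lower by a log2 difference of -1.25 ± 0.23 (edgeR adjusted p = 8.15e-05).

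The JJN3 levels of PMAIP1 were 29.4, 38.0 and 32.3 CPM with vehicle. They were 28.7, 41.1 and 31.9 CPM with CX-5461, 22.0, 26.3 and 24.1 CPM with panobinostat and 32.3, 29.4 and 22.1 CPM with both drugs. All panobinostat libraries lay below all vehicle libraries, and the other groups overlapped with vehicle. With CX-5461 the log2 fold change was 0.02 (95% interval -0.39 to 0.43). With panobinostat it was -0.48 ± 0.18 (edgeR adjusted p = 0.06), and -0.48 ± 0.14 with the replicate block (edgeR adjusted p = 0.00734). Without the block, PMAIP1 also passed without the filter on low counts (edgeR adjusted p = 0.0367) and when the JJN3 library CX 2 (0.0429) or CX+Pano 3 (0.0493) was left out.

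**Figure D2:**
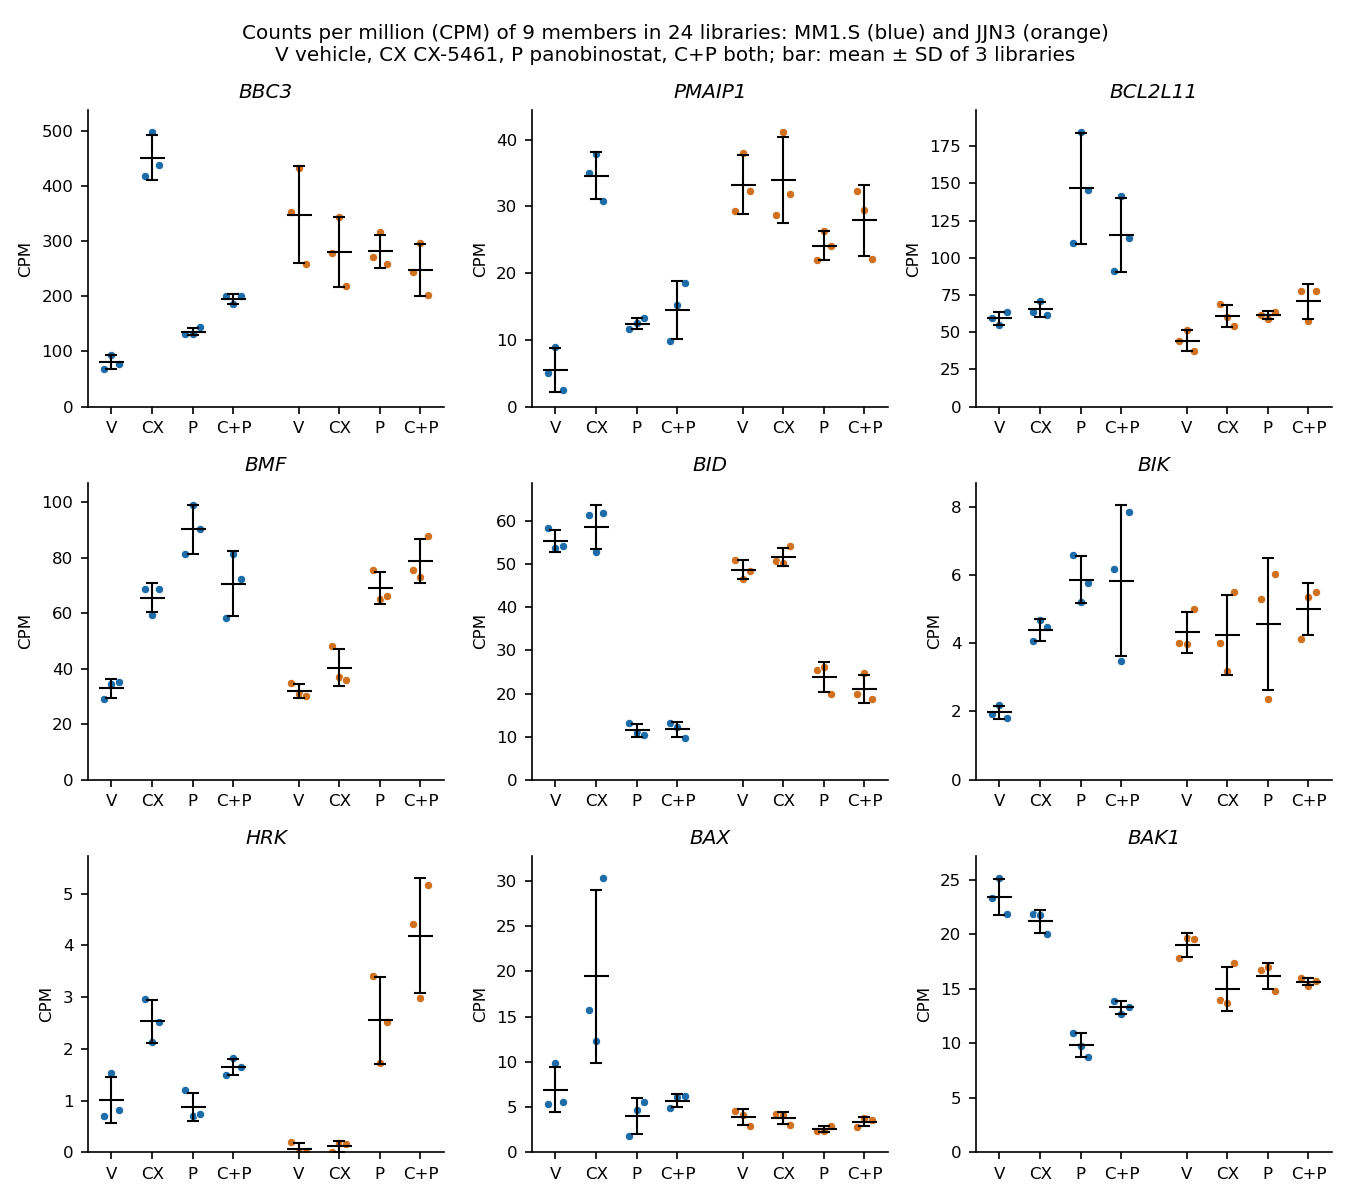
CPM (vertical axes, linear, from 0) of 9 members in each library, by treatment, in MM1.S (blue) and JJN3 (orange); bars are the mean ± SD of 3 libraries. BBC3 and PMAIP1 of MM1.S peak with CX-5461, at means of 452 and 34.6 CPM, BID falls to means of 11.4 and 11.7 CPM wherever MM1.S had panobinostat, and 1 CX-5461 library of MM1.S lifts the mean of BAX.

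BCL2L11 encodes BIM, a BH3-only protein that can engage both guardians and effectors. In MM1.S it was at 59.8, 54.6 and 63.6 CPM with vehicle and at 63.3, 71.3 and 61.3 CPM with CX-5461, which overlapped. It was 110, 184 and 146 CPM with panobinostat and 91.2, 141 and 113 CPM with both drugs, above all vehicle libraries. Against vehicle the change was 0.14 (95% interval -0.25 to 0.52) with CX-5461, 1.31 ± 0.17 with panobinostat (edgeR adjusted p = 1.1e-06) and 0.96 ± 0.17 with both (edgeR adjusted p = 4.42e-05). Its highest group was panobinostat, whereas that of BBC3 was CX-5461. Both drugs against panobinostat gave -0.35 ± 0.16, not called (edgeR adjusted p = 0.245), which passed without the MM1.S library Pano 1 (0.0169), as did its departure from the sum of the single drugs (0.0332).

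In JJN3, BCL2L11 was at 44.3, 51.6 and 37.2 CPM with vehicle and 68.9, 60.2 and 54.1 CPM with CX-5461. It was 61.7, 58.8 and 63.7 CPM with panobinostat and 77.5, 57.4 and 77.7 CPM with both drugs. Every treated library lay above every vehicle library. Its log2 fold change was 0.46 ± 0.16 with CX-5461, not called (edgeR adjusted p = 0.762), 0.46 ± 0.16 with panobinostat (edgeR adjusted p = 0.0396) and 0.67 ± 0.16 with both (edgeR adjusted p = 0.00244). The panobinostat call was lost without the JJN3 library Vehicle 1 (adjusted p = 0.0937), Vehicle 3 (0.173), Pano 1 (0.1), Pano 2 (0.0606) or Pano 3 (0.109). An antisense long noncoding gene, MIR4435-2HG, overlaps exons of BCL2L11. It was at 474 ± 32.3 CPM (SD, n = 3) in MM1.S with vehicle and 141 ± 11 CPM with panobinostat, and at 222 ± 42.1 and 164 ± 29.4 CPM in JJN3. The strand setting is not given in the sources used here, so reads of the 2 genes cannot be told apart where they overlap.

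BMF encodes a BH3-only protein held at the cytoskeleton in unstressed cells. In MM1.S it was at 29, 34.5 and 35.2 CPM with vehicle, 68.6, 59.5 and 68.8 CPM with CX-5461, 81.4, 98.9 and 90.3 CPM with panobinostat and 58.2, 81.5 and 72.2 CPM with both drugs. In JJN3 it was at 34.8, 31.0 and 30.1 CPM with vehicle, 48.1, 37.2 and 35.8 CPM with CX-5461, 75.5, 65.2 and 66.3 CPM with panobinostat and 75.5, 73.0 and 87.9 CPM with both. Every treated library of each line lay above all of its vehicle libraries. In MM1.S the log2 fold change was 1.00 ± 0.13 with CX-5461 (edgeR adjusted p = 4.15e-06), 1.46 ± 0.13 with panobinostat (edgeR adjusted p = 2.6e-10) and 1.11 ± 0.13 with both (edgeR adjusted p = 3.77e-08). In JJN3 it was 0.33 ± 0.14 with CX-5461, not called (edgeR adjusted p = 0.851), 1.10 ± 0.14 with panobinostat (edgeR adjusted p = 4.32e-05) and 1.30 ± 0.14 with both (edgeR adjusted p = 2.74e-06). In MM1.S, both drugs against panobinostat gave -0.35 ± 0.12, not called (edgeR adjusted p = 0.099), which passed without the MM1.S library Pano 1 (0.0265) or CX+Pano 2 (0.0357). BMF has an antisense partner, BMF-AS1, which is not analysed here.

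BID links death receptors to mitochondria, since caspase-8 cleaves its protein into the active form. It fell in both lines wherever panobinostat was given. In MM1.S it was at 58.4, 53.8 and 54.4 CPM with vehicle, 61.4, 52.8 and 61.9 CPM with CX-5461, 13.2, 10.8 and 10.3 CPM with panobinostat and 13.1, 12.2 and 9.68 CPM with both. In JJN3 it was at 51.1, 46.7 and 48.6 CPM with vehicle, 50.7, 50.3 and 54.2 CPM with CX-5461, 25.4, 26.3 and 19.8 CPM with panobinostat and 19.9, 24.8 and 18.6 CPM with both. Groups with panobinostat lay below all groups without it in each line, and within those 2 sets the groups overlapped. The log2 fold change with panobinostat was -2.28 ± 0.14 in MM1.S (edgeR adjusted p = 3.83e-13) and -1.05 ± 0.15 in JJN3 (edgeR adjusted p = 8.11e-05). With both drugs it was -2.24 ± 0.14 and -1.22 ± 0.15 (edgeR adjusted p = 3.99e-13 and 7.14e-06). With CX-5461 it was 0.08 in each line, with 95% intervals of -0.19 to 0.35 in MM1.S and -0.24 to 0.40 in JJN3.

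BIK, a BH3-only protein found mainly at the endoplasmic reticulum, was sparse. In MM1.S it was at 1.91, 2.19 and 1.82 CPM with vehicle (10 or 11 counts a library), 4.05, 4.68 and 4.47 CPM with CX-5461, 6.58, 5.22 and 5.78 CPM with panobinostat and 6.19, 3.47 and 7.86 CPM with both. Each treated library lay above the vehicle libraries. BIK changed by a log2 fold of 1.16 ± 0.33 with CX-5461 (edgeR adjusted p = 0.0147), 1.57 ± 0.32 with panobinostat (edgeR adjusted p = 0.000125) and 1.56 ± 0.32 with both (edgeR adjusted p = 0.00013). The CX-5461 call was lost without the MM1.S library Vehicle 1 (adjusted p = 0.0545) or Vehicle 3 (0.0648). Both drugs against CX-5461 gave 0.40 ± 0.27 (edgeR adjusted p = 0.194), which passed without the library CX+Pano 2 (0.0337). In JJN3, BIK ranged from 2.37 to 6.02 CPM over the 12 libraries, its 4 groups overlapped and no contrast was called.

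HRK, which encodes the BH3-only protein Harakiri and is best known from neurons, was the member with the lowest counts among those tested. Only its CX-5461 group carried it through the filter on low counts in MM1.S. In MM1.S it held 4, 7 and 5 counts with vehicle and 19, 15 and 18 with CX-5461, which did not overlap, against 6, 4 and 4 with panobinostat and 8, 11 and 9 with both. The log2 fold change with CX-5461 was 1.34 ± 0.42 (edgeR adjusted p = 0.0267). It did not pass in DESeq2 (adjusted p = 0.0772), without the filter on low counts (edgeR adjusted p = 0.0521), or without the MM1.S library Vehicle 1 (0.127), Vehicle 3 (0.114), CX 1 (0.0994) or CX 3 (0.0689).

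In JJN3, HRK was all but silent without panobinostat. Its counts were 1, 0 and 0 with vehicle and 0, 1 and 1 with CX-5461, against 20, 8 and 13 with panobinostat and 31, 15 and 30 with both drugs. Summed over each group and scaled by library size, panobinostat stood 44.9-fold above vehicle (95% counting interval 7.62 to 1816) and both drugs 72.9-fold (12.7 to 2918). These intervals cover counting error only, and vehicle held 1 count in all, in replicate 1. Without that library the fitted log2 change went from 5.00 to 6.88 with panobinostat and from 5.71 to 7.58 with both. Both contrasts were called (edgeR adjusted p = 0.000261 and 1.51e-05), while in MM1.S panobinostat left HRK at 0.695 to 1.20 CPM, overlapping with vehicle. HRK was tested in JJN3 only because its groups with panobinostat passed the filter on low counts. The JJN3 calls are thus not independent of that filter.

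Of the effectors, BAX rose with CX-5461 in MM1.S. It was at 5.39, 9.84 and 5.62 CPM with vehicle and 15.7, 12.3 and 30.3 CPM with CX-5461, with 101, 87 and 217 counts, which did not overlap. The log2 fold change was 1.52 ± 0.35 (edgeR adjusted p = 0.00708), and replicate 3 was the highest of the CX-5461 libraries by far. BAX was at 1.80, 4.69 and 5.6 CPM with panobinostat and 4.88, 6.11 and 6.21 CPM with both drugs, which overlapped with vehicle. The change of -0.73 ± 0.43 with panobinostat was not called (edgeR adjusted p = 0.143), but passed without the filter on low counts (0.00921) or without the library CX 3 (0.0407). Both drugs together left it below CX-5461 alone by a log2 difference of -1.75 ± 0.35 (edgeR adjusted p = 0.000379). In JJN3, BAX ranged from 2.37 to 4.59 CPM over the 12 libraries, the groups overlapped, and no contrast was called.

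BAK1, the other effector, fell with panobinostat in MM1.S. It was at 23.3, 25.1 and 21.8 CPM with vehicle, 21.8, 21.7 and 20.0 CPM with CX-5461, 11, 9.74 and 8.77 CPM with panobinostat and 13.9, 12.7 and 13.3 CPM with both. The panobinostat group lay below the combined group, which lay below the other groups. Relative to vehicle the log2 fold change was -1.24 ± 0.16 with panobinostat (edgeR adjusted p = 1.61e-07) and -0.80 ± 0.15 with both (edgeR adjusted p = 4.31e-05). In JJN3 it was at 17.8, 19.6 and 19.6 CPM with vehicle and between 13.7 and 17.3 CPM in all 9 treated libraries, lower without exception, but the log2 fold changes of -0.34, -0.25 and -0.29 were not called (edgeR adjusted p = 0.89, 0.28 and 0.165). BAK1 has pseudogene copies that are not analysed here, and how reads with several positions were handled is not given in the sources used here.

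BAD, a BH3-only protein controlled by phosphorylation, held 0 to 2 counts in each of the 24 libraries, below the floor of 3 counts, so no change in it was detectable at this depth. Its exons overlap the antisense gene GPR137.

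The combination was next compared with the sum of the single-drug effects on the log2 scale, where a departure of 0 means that the fold changes multiply. In MM1.S, 3 of the 9 members tested fell short of the sum, where 5.52% of genes departed and 3.65% fell short. The departure was -1.97 ± 0.15 for BBC3 (edgeR adjusted p = 4.98e-09), -2.49 ± 0.38 for PMAIP1 (edgeR adjusted p = 0.000385) and -1.35 ± 0.18 for BMF (edgeR adjusted p = 1.97e-05). For BBC3 the single-drug changes summed to 3.26 and the combined change was 1.29. BID, which only panobinostat moved, departed by -0.04 (95% interval -0.51 to 0.43). In JJN3, 0 members departed in edgeR, 0% of genes did, 564 genes had an unadjusted p under 0.05, DESeq2 called 19 genes with no member, and the block gave 105 genes with no member.

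**Figure D3:**
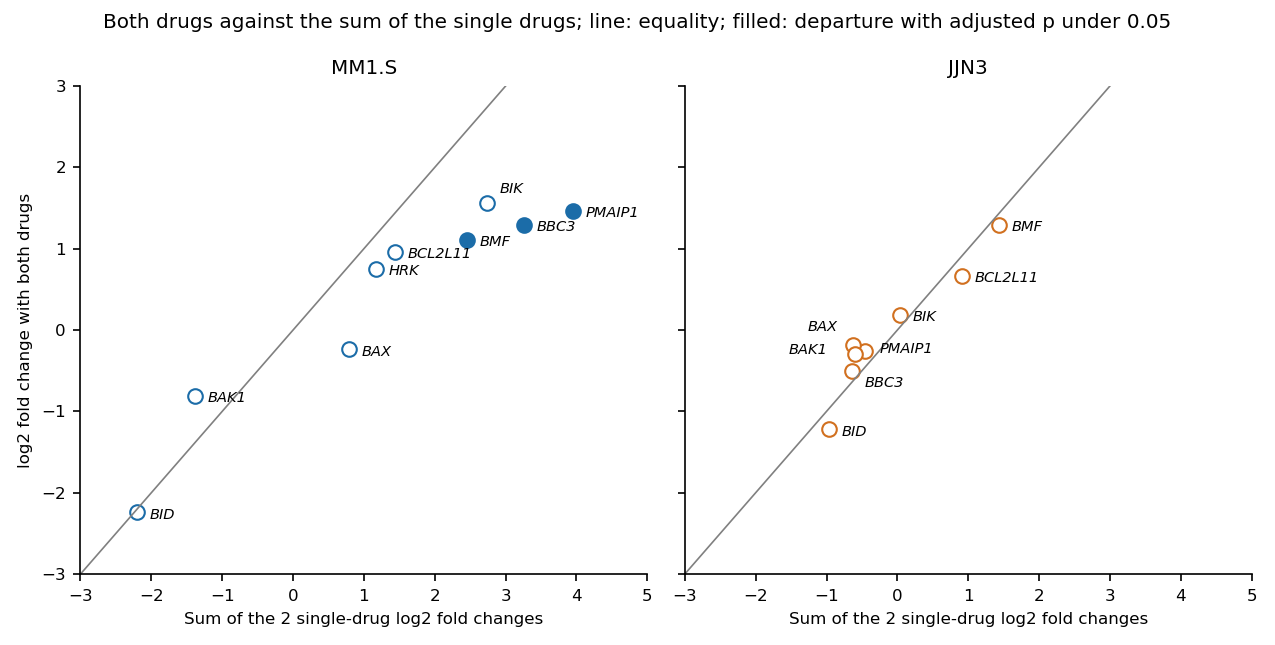
Log2 fold change with both drugs (vertical axis) against the sum of the single-drug log2 fold changes (horizontal axis) for each member tested, in MM1.S (left) and JJN3 (right, without HRK); the grey line marks equality and filled points had a departure with adjusted p under 0.05. BBC3, PMAIP1 and BMF of MM1.S lie below the line, with departures of -1.97, -2.49 and -1.35.

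Whether the lines responded differently was tested in a fit of all 24 libraries, by subtracting the MM1.S change from the JJN3 change. For CX-5461, 2 of the 9 members differed, where 1.32% of 12872 genes did and 1.03% were lower in JJN3. The difference was -2.80 ± 0.23 for BBC3 (edgeR adjusted p = 6.49e-09) and -2.68 ± 0.34 for PMAIP1 (edgeR adjusted p = 1.03e-05). For BAX it was -1.52 ± 0.48 and for BMF -0.66 ± 0.20, neither called (edgeR adjusted p = 0.129 and 0.112). With the replicate block both were called (edgeR adjusted p = 0.032 for BAX and 0.0137 for BMF), so for these genes the call depends on the fit. The block in this fit uses the replicate numbers of both lines, though they were taken as pairs only in JJN3. Without the block, BAX passed without the filter on low counts (edgeR adjusted p = 0.0167), and BMF without the JJN3 library CX 1 (0.0448).

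For panobinostat 7 of 9 members differed, where 33.3% of genes did, 18.9% higher and 14.4% lower in JJN3. The change was lower in JJN3 for BBC3 (-1.07 ± 0.23, edgeR adjusted p = 0.000688), PMAIP1 (-1.70 ± 0.36, edgeR adjusted p = 0.000491), BCL2L11 (-0.83 ± 0.24, edgeR adjusted p = 0.00656) and BIK (-1.48 ± 0.47, edgeR adjusted p = 0.0141). It was higher, here meaning a smaller fall, for BID (1.25 ± 0.20, edgeR adjusted p = 1.43e-05) and BAK1 (1.02 ± 0.21, edgeR adjusted p = 0.000417), and higher for HRK (edgeR adjusted p = 0.000104). Without the MM1.S library Vehicle 2, the highest of PMAIP1 among the vehicle libraries, the PMAIP1 difference was -2.29.

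For both drugs 5 of 9 differed, where 32.8% of genes did, 18.8% higher and 14% lower. They were BBC3 (-1.77 ± 0.23, edgeR adjusted p = 8.47e-07), PMAIP1 (-1.70 ± 0.35, edgeR adjusted p = 0.000417), BIK (-1.36 ± 0.46, edgeR adjusted p = 0.0225), BID (1.03 ± 0.20, edgeR adjusted p = 0.000177) and HRK (edgeR adjusted p = 0.000108). BAK1 (0.53 ± 0.21, edgeR adjusted p = 0.0501) passed without the JJN3 library CX 2 (0.0494) or Pano 1 (0.0487). The BIK call was lost without the MM1.S library CX+Pano 3 (adjusted p = 0.0697) or the JJN3 library CX+Pano 1 (0.056). BMF, raised by panobinostat in both lines, was not called for any drug in the fit of all 24 libraries without the replicate block, and had a difference of 0.20 for both drugs (95% interval -0.22 to 0.62).

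**Figure D4:**
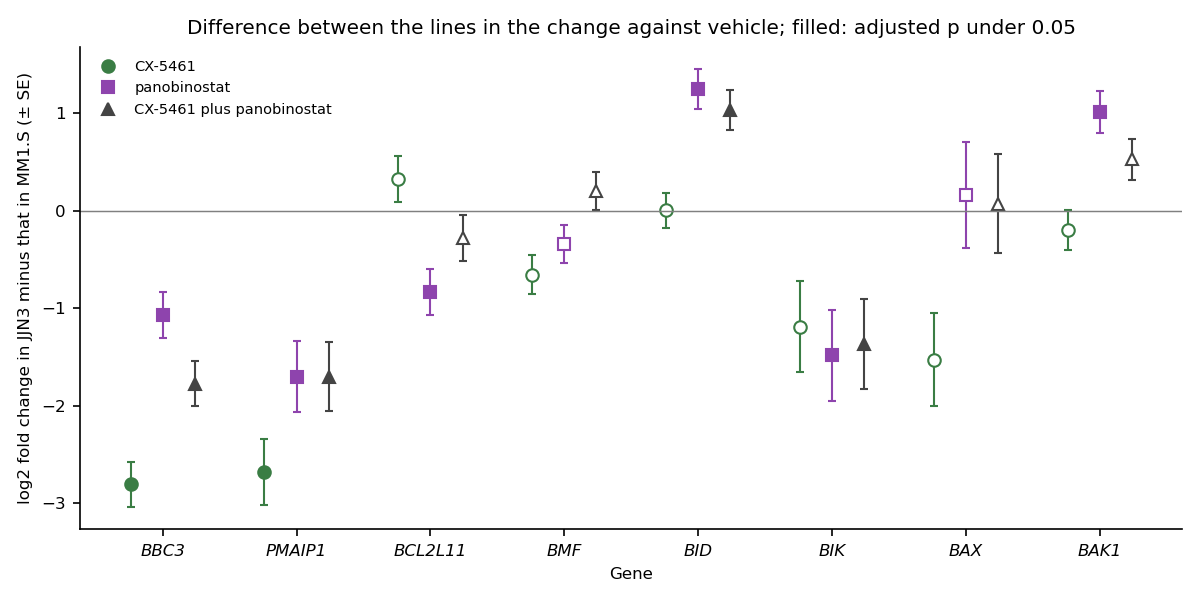
Log2 fold change against vehicle in JJN3 minus that in MM1.S (vertical axis, ± SE) for 8 members, with CX-5461 (circles), panobinostat (squares) and both (triangles); filled symbols had an adjusted p under 0.05, and HRK is left out. The circles of BBC3 and PMAIP1 lie at -2.80 and -2.68, while BID and BAK1 lie above 0 with panobinostat.

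The lines also differed before treatment. With vehicle 6 of 9 members were called between the lines, where 63.7% of genes were, 30.2% higher and 33.5% lower in JJN3, so the share is near the background. BBC3 was 4.34-fold higher in JJN3 (log2 2.12 ± 0.17, edgeR adjusted p = 1.03e-11), PMAIP1 6.27-fold (2.65 ± 0.26, edgeR adjusted p = 6.11e-10) and BIK 2.21-fold (1.14 ± 0.35, edgeR adjusted p = 0.00586). HRK was lower in JJN3, with 1 count in all against 16 in MM1.S (edgeR adjusted p = 0.000558). BCL2L11 (-0.42 ± 0.17, edgeR adjusted p = 0.0297) and BAX (-0.83 ± 0.35, edgeR adjusted p = 0.0379) were lower in JJN3, but these calls were lost in 15 and 13 of the 24 fits that each left out 1 library, with adjusted p up to 0.285 without JJN3 Vehicle 3 and up to 0.312 without MM1.S Vehicle 2. BMF, BID and BAK1 did not pass.

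Across the 8 group means of log2 CPM, which share libraries, lines and depth, BBC3 was most like PMAIP1 (Pearson r = 0.955) among 8577 genes, followed by CD70 (0.953) and PTP4A1 (0.934). PMAIP1 was most like CD70 (0.959), BBC3 and RGS16 (0.946). BCL2L11 was most like HDGFL2 (0.990), PPM1B (0.989) and SLC35A5 (0.985), and BMF most like FUCA1 (0.987), MKRN1 (0.972) and NECTIN3 (0.972). Among the members, BID and BAK1 had r = 0.839, BCL2L11 and BMF 0.737, and BCL2L11 and BID -0.843. These values describe 8 points and carry no test.

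The rest of the pathway was read from lists that were chosen with earlier results of these data known. Of the 6 anti-apoptotic members, 4 were tested in each line. In MM1.S, panobinostat lowered BCL2L1 (log2 -2.60 ± 0.17, edgeR adjusted p = 8.57e-13) and BCL2A1 (-4.36 ± 0.55, edgeR adjusted p = 1.16e-07) among 3 called lower, and raised MCL1 (0.88 ± 0.09, edgeR adjusted p = 5.26e-09). With both drugs the counts were likewise 3 lower and 1 higher. Of all genes, 32.9% were called lower and 36.9% higher with panobinostat, and 33.2% and 37% with both. BCL2L1 stood at 34.5 ± 1.00 CPM (SD, n = 3) with vehicle, 57.3 ± 6.44 with CX-5461, 5.63 ± 0.99 with panobinostat and 2.98 ± 0.71 with both. In JJN3, panobinostat raised BCL2 (0.51 ± 0.12, edgeR adjusted p = 0.00566), both drugs raised BCL2 and MCL1, and none of the 4 was called lower. Of all genes in JJN3, 15% were called higher and 10.9% lower with panobinostat, and 21% and 18.2% with both. Of 15 apoptosome and caspase genes tested in MM1.S, panobinostat raised 5, among them APAF1 (2.90 ± 0.46, edgeR adjusted p = 4.16e-06), the scaffold of the apoptosome, and lowered 8, among them CYCS (-0.75 ± 0.10, edgeR adjusted p = 3.54e-07), which encodes cytochrome c. Of all genes, as above, 36.9% were called higher and 32.9% lower. CX-5461 lowered 3 of these 15 in MM1.S, where 7.06% of all genes were lower, and 0 in JJN3, where 0% were. Of 12 other BCL2-related genes, 5 were tested, and BNIP3L was the 1 called with panobinostat in each line, higher (1.52 ± 0.33 in MM1.S and 0.46 ± 0.15 in JJN3, edgeR adjusted p = 0.00262 and 0.0327). Of all genes, panobinostat called 69.8% in MM1.S, 36.9% higher, and 26% in JJN3, 15% higher.

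The list of regulators known to act on the members was chosen in the same way. Of these, CX-5461 in MM1.S raised 8 of 15 tested and lowered 1, where 9.68% of all genes were higher and 7.06% lower. The 2 with the smallest adjusted p were JUN (1.91 ± 0.12, edgeR adjusted p = 4.15e-11), an AP-1 subunit, and DDIT3 (3.02 ± 0.20, edgeR adjusted p = 9.01e-11), a stress transcription factor also called CHOP, and MYC was the gene that fell (-1.05 ± 0.18, edgeR adjusted p = 0.000164). JUN stood at 83.5 ± 21.0 CPM (SD, n = 3) with vehicle, 312 ± 22.7 with CX-5461, 693 ± 26.0 with panobinostat and 552 ± 19.5 with both drugs. Its highest group was thus panobinostat, and that of BBC3 was CX-5461. Whether JUN or the AP-1 letters bear on the level of BBC3 was not tested. For the CX-5461 change, 5 of 17 regulators differed between the lines and all were lower in JJN3, where 1.32% of all genes differed and 1.03% were lower, with DDIT3 (-3.28 ± 0.33, edgeR adjusted p = 9.65e-08) and MDM2 (-1.99 ± 0.21, edgeR adjusted p = 3.85e-07) at the smallest adjusted p.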

How the data were processed

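PolyA RNA of 24 libraries, 3 per line and treatment, was measured by 3′ RNA sequencing. The authors deposited 1 table of raw read counts per gene for each line, whole numbers without normalisation, judged from the values and the labels. HISAT2 2.2.1, featureCounts 2.0.1 and limma 3.50.0 are named in the submitters' processing notes, which also list hg19 and GRCh37, without role or order. For strand setting and annotation, nothing was given in the sources used here. Titles assigned the groups, since the treatment label of 2 of the 3 JJN3 CX-5461 libraries carries a different compound number from the title and the protocol.

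Counts were tested with edgeR 4.0.16 (R 4.3.3; TMM, filterByExpr, robust quasi-likelihood F test, two-sided) in 1 fit of 12 libraries per line (8 residual degrees of freedom) and 1 fit of 24 libraries for differences between lines (16). Benjamini-Hochberg adjustment ran over all genes tested, and calls used an adjusted p under 0.05. SE is the log2 fold change divided by the root of F, and printed CPM use TMM over all 24 libraries. Symbols came from RefSeq, which named 27745 of 28395 identifiers. No 2 libraries of a group agreed within counting noise (chi-square per degree of freedom at least 4.35). Full statistics were given for members called in at least 1 contrast with vehicle, and at most 2 genes per direction with the smallest adjusted p were named in each list. Members and lists were chosen with earlier results of these data known. The replicate numbers were taken as pairs in JJN3, where deviations of same-numbered libraries correlated at 0.201 to 0.485 in 18 of 18 pairs of groups and numbers, and not in MM1.S, where 6 of 18 exceeded 0.1. Alternatives used DESeq2 1.42.0, limma-voom 3.58.1, other scalings and filters, the block, and each library left out. The scripts were tested on simulated data. The result of 1 gene of the regulator list is not reported here.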

Additional observations from a re-analysis of the deposited data

Results flagged for a closer look

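The effects of the drugs on 7 members differed between MM1.S and JJN3 by a test of the difference itself, given as log2 differences (the JJN3 change less the MM1.S change) with edgeR's adjusted p. With CX-5461, BBC3 differed by -2.80 (adjusted p = 6.49e-09) and PMAIP1 by -2.68 (1.03e-05). With panobinostat, BBC3 differed by -1.07 (0.000688), PMAIP1 by -1.70 (0.000491), BCL2L11 by -0.83 (0.00656), BIK by -1.48 (0.0141), BID by 1.25 (1.43e-05) and BAK1 by 1.02 (0.000417). With both drugs, BBC3 differed by -1.77 (8.47e-07), PMAIP1 by -1.70 (0.000417), BIK by -1.36 (0.0225) and BID by 1.03 (0.000177). HRK differed by a fitted 5.20 with panobinostat (0.000104) and 4.98 with both drugs (0.000108), values that rest on 1 count over the JJN3 vehicle libraries and are no measure of size. The lines differ in more than p53 status, and line and p53 status cannot be told apart. Groups of 3 libraries were too small to look for single outlying libraries.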

How the results depend on the processing

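Of 61 calls over 144 member contrasts, 54 held in every alternative that gave an adjusted p, 6 were lost when some single library was left out and 4 in some other setting. No value farther than 1 SE from 0 changed sign. The number of members called for both drugs against panobinostat in MM1.S, 1, became 2 without the filter on low counts, 2 with the replicate block and 0 in a single fit of both lines, and ranged from 1 to 3 without single libraries. All genes called there went from 491 to 734 of 19937 without the filter, and ranged from 175 to 1177 without single libraries. For the CX-5461 difference between the lines, 2 members became 4 with the replicate block, which added BMF (adjusted p = 0.0137) and BAX (0.032). Deviations of same-numbered MM1.S libraries correlated at -0.047 to 0.290, and those of differently numbered ones at -0.290 to 0.145. In MM1.S the block moved no other count of members by more than 1.5 times. With it, genes called went from 491 to 925 for both drugs against panobinostat, from 664 to 1023 for the departure and from 170 to 582 for the CX-5461 line difference. One fit of both lines gave 1320 in place of 2014 genes for CX-5461 in MM1.S, 187 in place of 491 for both drugs against panobinostat and 330 in place of 664 for the departure. For both drugs against panobinostat in JJN3, 103 genes became 439 without the filter and 412 in a single fit. For CX-5461 and the departure in JJN3, 0 genes became 31 and 46 without the filter and 8 and 2 in a single fit. Without the filter, 170 genes became 310 for the CX-5461 line difference. Scaling by library size alone shifted the median of all genes in MM1.S with panobinostat from 0.07 to 0.20, and with both drugs from 0.06 to 0.24, in JJN3 with both drugs from 0.005 to 0.118, and in the panobinostat line difference from 0.03 to -0.10. It moved the share of called genes that were higher from 57.8% to 75.2% for CX-5461 in MM1.S, from 53.7% to 65.7% for both drugs in JJN3, from 59.7% to 72.8% and from 20.4% to 51.3% for both drugs against panobinostat in MM1.S and JJN3, and from 56.8% to 46.8% for the panobinostat line difference. The cause was not tested. Without single libraries, the members called ranged from 4 to 6 for CX-5461 in MM1.S, from 3 to 5 for panobinostat in JJN3 and from 4 to 6 between the vehicle groups. All genes called ranged from 1347 to 2402, from 1957 to 3070 and from 7714 to 8356 in these contrasts. Low counts, whose cause was not tested, limit what can be said of BAD, at no more than 2 counts in a library, and of HRK, at no more than 31.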
